A study of Homo sapiens with 10 samples.

Results

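MYC and 6 other genes of its dimer network were followed across RNA that crosslinked to FLAG-tagged eIF4A, with and without rocaglates. The genes were taken by symbol from the count files: MYC, MYCN, MAX, MNT, MXI1, MLX and MGA, 7 of 39472 symbols. Each gene has a count for its 5' leader, its coding sequence (CDS) and its 3'UTR, which gives 21 features, a feature being a gene in 1 of these classes. The cells were HEK 293T, an established human kidney line. Their RNA was profiled by eCLIP, in which ultraviolet light joins a protein to the RNA it touches and the joined fragments are pulled down and sequenced. The treated groups were silvestrol, a plant rocaglate, and CR-1-31-B, a synthetic one, each at 20 nM for 1 h with 3 anti-FLAG libraries. The control group was vehicle (DMSO), also with 3 anti-FLAG libraries. A single input library, numbered 2 and made without antibody, gave the background, and its treatment is not stated in the labels. Every group carried the same tagged protein. Which eIF4A paralogue bore the tag, and whether the cells were 1 clone, is not given in the sources used here.

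The MYC proteins are basic helix-loop-helix leucine zipper (bHLHZip) transcription factors that bind DNA as dimers with MAX. MAX also pairs with MNT and MXI1, which recruit SIN3 corepressors to the same DNA sites, and with MGA, a scaffold of a Polycomb repressive complex. MLX is a MAX-like protein that pairs with MNT and with the glucose-responsive factors MLXIP and MLXIPL. MYC protein and mRNA are both short-lived, and MYC output therefore depends closely on ongoing translation. eIF4A is the RNA helicase that prepares 5' leaders for ribosome loading. Rocaglates hold eIF4A on RNA, with a known preference for runs of purines (A and G).

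Anti-FLAG libraries held 858733 to 1804732 counts and the input library 2193699. In the input library the HEK 293T markers VIM, KRT8, KRT18, NEFL, NEFM, PAX2 and LHX1 had 12 to 326 mRNA counts, while the leukocyte markers PTPRC and CD3E and the erythroid marker HBB were at 0. ALB, a hepatocyte marker, had 1 count, PECAM1 (endothelium) 18 and COL1A1 (fibroblasts) 143. Over all genes, 5' leaders took 37.9% ± 2.17 of mRNA counts with silvestrol, 36.2% ± 6.40 with CR-1-31-B and 27.9% ± 2.07 with DMSO (SD, n = 3 each), against 12.9% in the input. Levels below are CPM, counts relative to the size of the library, on TMM-scaled library sizes unless stated, and a feature is said to be called where the edgeR quasi-likelihood test gave an adjusted p under 0.05 over all 24713 tested features.

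Because purine runs bear on how rocaglates hold eIF4A, the longest run in the leaders of 6 members is shown, and that of MYC is described by its length without being printed. The leaders are those of the APPRIS-principal transcripts of GENCODE v29 on GRCh38, a reference that may differ from the annotation behind the counts. Capitals mark the longest purine run, with flanks that bring each site to at most 30 bases, written 5′ to 3′ on the strand of the mRNA.
MNT (chromosome 17, minus strand): ggtAGAGAGGGAGGGGAAGAAGGGAGGcag
MYCN (chromosome 2, plus strand): cgccccccacGGGAAGGAAGcacccccggt
MXI1 (chromosome 10, plus strand): ctgtcggcccGAGAAGGGAGtgcggagagg
MAX (chromosome 14, minus strand): agtgtgtgtgtGGGGGGGActcggcttgtt
MGA (chromosome 15, plus strand): cccgcacggatGGGAAGGccattgtgact
MLX (chromosome 17, plus strand): cctcgccgcAGGGGGcccgcccgctgg

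The MNT run was 24 bases long, at positions 132 to 155 of a leader of 406 bases. Among 6918 tested leaders that could be matched to the reference (97.1% of 7122), 1.72% had a run at least as long, and the median run was 8 bases. Runs of 10 bases stood in the MYCN and MXI1 leaders (297 and 218 bases long), 8 in MAX (131 bases), 7 in MGA (181 bases) and 6 in MLX (53 bases). The MYC leader was 525 bases long, longer than 85.3% of the matched leaders, and its longest run was 11 bases, which 30.9% of them equalled or exceeded. The hexamers AGAGAG and GAGAGA were searched on the mRNA strand only, and they overlap each other. MNT held both, the other 6 members held neither, and 17.2% of the matched leaders held at least 1. Over all annotated transcripts with a leader, the longest run stayed at 24 bases in both MNT transcripts, while it ranged from 11 to 18 in the 4 MYC transcripts and from 5 to 12 in the 12 MAX transcripts.

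The MYC leader was the member feature called higher with each rocaglate. It stood at 486, 475 and 341 CPM in the silvestrol libraries, at 419, 486 and 314 CPM in the CR-1-31-B libraries, and at 141, 109 and 98.5 CPM in the DMSO libraries. All 6 rocaglate libraries lay above all 3 DMSO libraries. The means were 434 ± 80.6 CPM with silvestrol, 406 ± 86.8 CPM with CR-1-31-B and 116 ± 22.1 CPM with DMSO (SD, n = 3 each). The log2 fold change was 1.90 (SE 0.34, 95% interval 1.19 to 2.61) for silvestrol over DMSO, with an adjusted p of 0.0168 by edgeR's quasi-likelihood test. For CR-1-31-B over DMSO it was 1.80 (SE 0.34), with an adjusted p of 0.0183 in the same test. The mean of both rocaglates over DMSO gave 1.85 (SE 0.31, adjusted p = 0.00638 by edgeR's quasi-likelihood test). No measure of total RNA under each treatment was used here, and more eIF4A on each MYC mRNA cannot be told apart from more MYC mRNA by leader counts alone.

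MYC spans chromosome 8 from 127735434 to 127741434 on the plus strand of GRCh38 (GENCODE v29). Among 7122 tested leaders, it ranked 45 by mean CPM with silvestrol, 37 with CR-1-31-B and 265 with DMSO. By fold change it was less unusual: 4.49% of tested leaders had a silvestrol fold at least as large, and 5.00% a CR-1-31-B fold at least as large. Among the 59 leaders at least as abundant as MYC, itself included, 5 had a silvestrol fold and 4 a CR-1-31-B fold of at least its size. Of 7 member leaders, 5 passed the filter on low counts, and MYC was the 1 called with each rocaglate. The share of tested leaders called higher was 0.857% for silvestrol, 0.8% for CR-1-31-B and 1.39% for both rocaglates.

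Leaders as a class also moved, with a median log2 fold change of 0.40 for silvestrol and 0.35 for CR-1-31-B, against -0.12 and -0.03 for CDS and -0.26 and -0.27 for 3'UTRs. Scaling on leaders alone lowered the median of all features by 0.44 for silvestrol and by 0.36 for CR-1-31-B. On that scale the MYC leader was at 1.45 for silvestrol and 1.40 for CR-1-31-B, each with an adjusted p of 0.186 by edgeR's quasi-likelihood test, and was not called. The call also depended on which library was left out. For silvestrol it was lost without DMSO 1 (adjusted p = 0.0614 by edgeR), DMSO 2 (0.104), DMSO 3 (0.181) or silvestrol 1 (0.107), with log2 fold changes of 1.80 to 2.12 over all 9 fits that left out 1 library. For CR-1-31-B it was lost without DMSO 1 (adjusted p = 0.0797 by edgeR), DMSO 2 (0.1001), DMSO 3 (0.201), CR-1-31-B 1 (0.0847) or CR-1-31-B 2 (0.116), with log2 fold changes of 1.70 to 2.02.

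**Figure D1:**
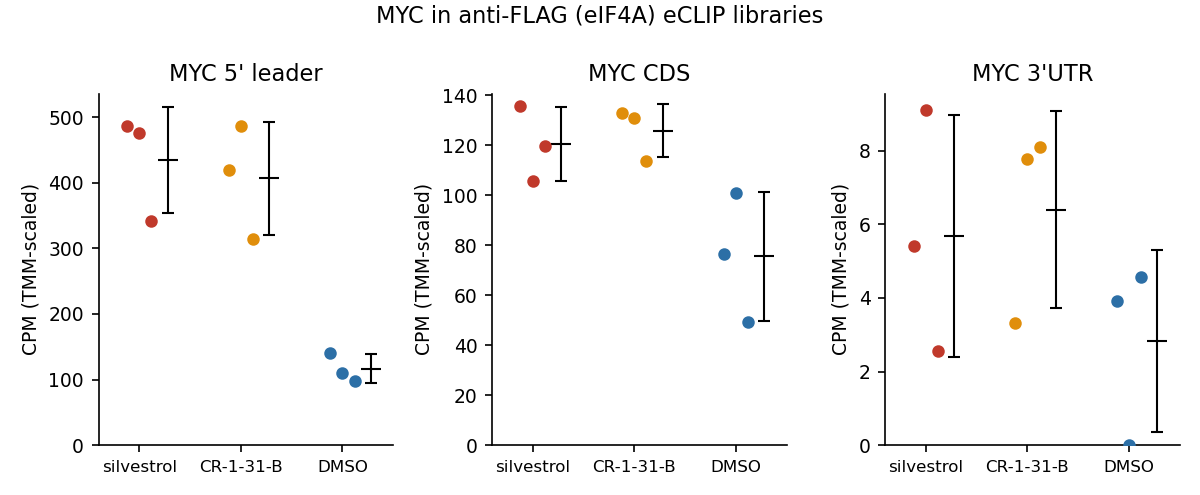
MYC CPM (TMM-scaled) in the 5' leader, CDS and 3'UTR, each axis on its own scale. Points are libraries numbered 1 to 3 from left to right in each group, and the bars give the mean and SD; the leader panel shows every rocaglate library at 314 CPM or more and every DMSO library at 141 CPM or less.

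**Figure D2:**
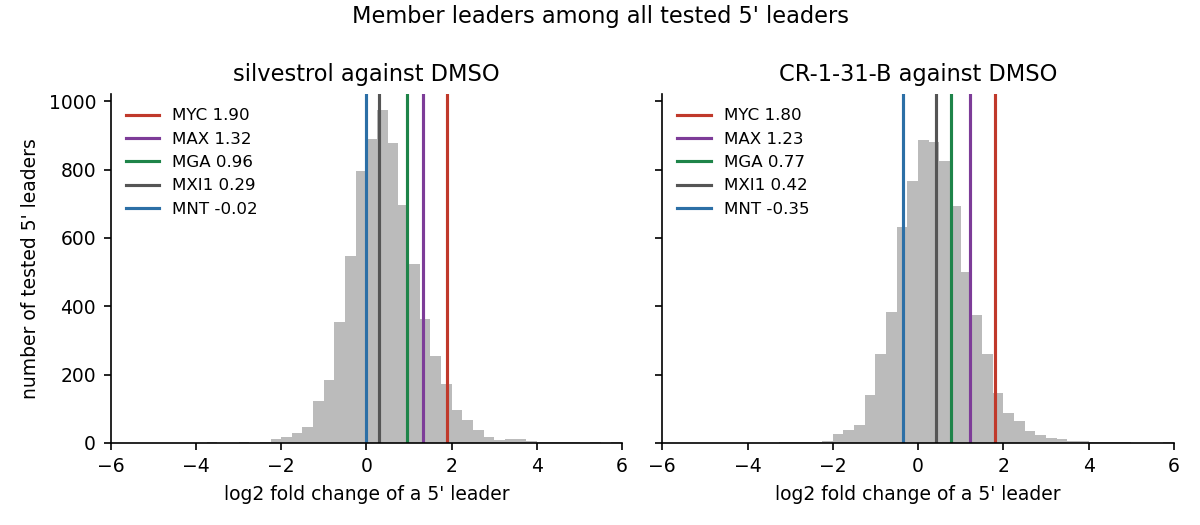
Histograms of the log2 fold change over DMSO of 7122 tested 5' leaders, in bins of 0.25, with vertical lines at the 5 tested member leaders. MYC sits in the right tail of each panel (1.90 and 1.80), and MNT lies left of the peak (-0.02 and -0.35).

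The MYC CDS moved less than the leader. It had 136, 106 and 120 CPM with silvestrol, 133, 131 and 114 CPM with CR-1-31-B, and 76.3, 101 and 49.2 CPM with DMSO. All 6 rocaglate libraries again lay above all 3 DMSO libraries, though silvestrol 2 exceeded DMSO 2 by a small margin. On the log2 scale its change was 0.67 for silvestrol (SE 0.35, adjusted p = 0.660 by edgeR) and 0.73 for CR-1-31-B (SE 0.35, adjusted p = 0.556), and neither was called. The MYC 3'UTR held 0 to 9 counts per library and did not pass the filter.

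The leader share of MYC mRNA counts, which does not depend on library size, separated the groups. It was 77.5%, 80.5% and 73.6% in the silvestrol libraries, 75.5%, 77.8% and 72.1% in the CR-1-31-B libraries, and 63.7%, 52.0% and 64.7% in the DMSO libraries. No rocaglate library overlapped the DMSO range. The mean of the 6 rocaglate libraries was 76.2% ± 3.08 and that of the 3 DMSO libraries 60.1% ± 7.04 (SD), a difference of 16.0 points. A two-sided exact permutation test over libraries gave p = 0.0119, the smallest that 84 splits allow. With 3 libraries against 3, each rocaglate alone reached p = 0.1 in the exact permutation test, again the smallest possible, at 17.1 points for silvestrol and 15.0 points for CR-1-31-B. Leaders summed over all genes also had a higher mean share with each rocaglate. A fit of the leader change against the change of CDS plus 3'UTR in the same mRNA therefore set MYC beside other genes. The leader of MYC gained 1.18 (SE 0.44) over the rest of its mRNA on the log2 scale with silvestrol, 1.01 (SE 0.44) with CR-1-31-B and 1.09 (SE 0.38, 0.33 to 1.86) with both. The medians of the 11228 genes fitted were 0.54, 0.44 and 0.48 in the same contrasts. The adjusted p-values for MYC by edgeR's quasi-likelihood test were 0.254, 0.458 and 0.181, so MYC was not called. In that fit 0.713% of genes were called for silvestrol, 0.267% for CR-1-31-B and 1.13% for both rocaglates. With the library number as a block 168, 106 and 239 genes were called, without MYC (adjusted p = 0.105, 0.266 and 0.0626 by edgeR).

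The 3 DMSO libraries were set beside the input to see where eIF4A lay on these mRNAs without rocaglate. These levels are CPM of all counts without TMM factors, and 1 input library allows no test. The MYC leader had 134, 95.9 and 91.2 CPM in the DMSO libraries, against 19.6 CPM in the input (95% exact Poisson interval 14.2 to 26.4, which covers counting error only). The ratio of the DMSO mean to the input was 5.47, above the 3.002 of all leaders summed. The MYC CDS had a ratio of 1.04, beside 1.06 for all CDS summed. These ratios depend on the scale, since ncRNA took 13.3% to 17.3% of counts with DMSO and 39.5% in the input. Relative to mRNA counts alone, the ratio was 3.91 for the MYC leader (2.16 for all leaders) and 0.749 for the MYC CDS (0.758 for all CDS). The leader share of MYC mRNA counts was 60.1% with DMSO, against 22.2% in the input (95% Clopper-Pearson interval 16.5% to 28.7%). Among the other members, the ratio of leader CPM with DMSO to that in the input was 4.44 for MXI1, 2.47 for MAX, 2.00 for MGA and 0.856 for MNT. Relative to mRNA counts these were 3.21 for MXI1, 1.77 for MAX, 1.43 for MGA and 0.616 for MNT. Of these, MXI1 lay above all leaders summed on each scale (3.002 and 2.16), while MAX, MGA and MNT lay below. The input held 10 leader counts for MXI1, 16 for MAX and 5 for MGA. On the scale of all counts, all 3 DMSO libraries lay above the input's interval for the MYC, MAX and MXI1 leaders, and 1 of 3 did for MGA. The MNT leader had 37.3, 41.0 and 31.8 CPM with DMSO, against 42.9 CPM in the input (34.6 to 52.4), and 1 DMSO library lay below that interval. The MXI1 3'UTR went the other way from its leader, with a ratio of 0.549 and all 3 DMSO libraries below the input's interval. Libraries were set against the input's interval on the scale of all counts only. Relative to mRNA counts the ratios were lower, so the number of libraries above or below an interval may differ there.

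MAX, the shared partner, had the second largest leader fold of the members but was not called. Its leader had 71.7, 44.4 and 29.3 CPM with silvestrol, 53.6, 51.0 and 32.4 CPM with CR-1-31-B, and 26.4, 14.9 and 17.2 CPM with DMSO. The rocaglate and DMSO libraries did not overlap, and the gap between silvestrol 3 and DMSO 1 was narrow. The log2 fold change was 1.32 for silvestrol (SE 0.46, 0.37 to 2.27) and 1.23 for CR-1-31-B (SE 0.46), at adjusted p-values of 0.335 and 0.362 by edgeR's quasi-likelihood test. With both rocaglates it was 1.27 (SE 0.41, unadjusted p = 0.00540, adjusted p = 0.210 by edgeR), a fold that 12.7% of tested leaders equalled or exceeded. The MAX CDS was at -0.61 over DMSO for silvestrol and at 0.33 for CR-1-31-B. Its 3'UTR was at -0.30 and -0.21, and none of these values was called. The leader share of MAX mRNA counts was 46.0% to 58.9% with silvestrol, 34.1% to 51.9% with CR-1-31-B and 21.5% to 32.1% with DMSO, against 14.7% in the input. The mean share was 22.9 points higher over the 6 rocaglate libraries than over DMSO, and no library overlapped. The gap was 16.0 points for MYC, and the difference between the 2 genes was not tested. Against the rest of its mRNA the MAX leader gained 1.70 (SE 0.71) with silvestrol, 1.24 (SE 0.71) with CR-1-31-B and 1.47 (SE 0.62) with both. None was called (adjusted p = 0.351, 0.638 and 0.311 by edgeR's quasi-likelihood test). Across the 9 anti-FLAG libraries, log2 CPM of the MAX leader correlated with that of the MYC leader at r = 0.917, where the median leader had r = 0.391. The libraries share treatment, depth and library number, and this r is a description.

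MNT, the broadly expressed MAX partner that opposes MYC, had no called change in its leader, which holds the long purine run shown above. The leader had 31.9, 46.6 and 40.8 CPM with silvestrol, 28.4, 22.5 and 44.0 CPM with CR-1-31-B, and 39.2, 46.7 and 34.3 CPM with DMSO. The groups overlapped throughout. The log2 fold change was -0.02 for silvestrol (95% interval -0.89 to 0.85) and -0.35 for CR-1-31-B (-1.23 to 0.53), which leaves room for a change of up to 0.85 upward with silvestrol. Of the tested leaders, 71.7% had a silvestrol fold and 82.0% a CR-1-31-B fold at least as high. By contrast, the 119 matched leaders with a run at least as long as in MNT had a median log2 fold change of 0.63 with both rocaglates, and 86.6% of them were above 0. Over all 6918 matched leaders the median was 0.37, and 70.3% were above 0. Leaders with long runs were also longer, with a median of 466 bases against 247.5 for all, and the part of length in that gap was not tested. MNT itself was at -0.19 with both rocaglates (SE 0.36, adjusted p = 0.918 by edgeR).

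The MNT CDS was the lowest value among member folds with silvestrol. It had 20.5, 1.14 and 17.8 CPM with silvestrol, 19.2, 47.6 and 39.4 CPM with CR-1-31-B, and 36.2, 50.9 and 27.5 CPM with DMSO. All silvestrol libraries lay below the DMSO range, while CR-1-31-B overlapped it. Silvestrol 2 held a single count. The log2 fold change was -1.49 for silvestrol (SE 0.61, adjusted p = 0.477 by edgeR) and -0.12 for CR-1-31-B (SE 0.57, adjusted p = 0.984), and neither was called. The MNT leader share of mRNA counts was 36.1% to 47.7% with silvestrol, 21.0% to 39.5% with CR-1-31-B and 29.1% to 38.8% with DMSO. It was 45.2% in the input, above all 3 DMSO libraries, and MNT was the only member of the 5 with a tested leader where this was so.

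MXI1, another repressive MAX partner, had a leader at 22.3, 29.6 and 30.6 CPM with silvestrol, 29.8, 39.8 and 19.7 CPM with CR-1-31-B, and 12.7, 36.1 and 18.3 CPM with DMSO. The groups overlapped and the DMSO libraries alone spanned 12.7 to 36.1 CPM. The log2 fold changes were 0.29 for silvestrol and 0.42 for CR-1-31-B (SE 0.51 and 0.50, not called), close to the leader medians of 0.40 and 0.35. Its leader share of mRNA counts was 48.3% ± 14.0 with silvestrol, 51.3% ± 8.10 with CR-1-31-B and 44.0% ± 7.99 with DMSO (SD, n = 3 each), against 13.0% in the input. With DMSO that share exceeded the input by 31.0 points for MXI1, beside 38.0 points for MYC.

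MGA, whose protein pairs with MAX within a Polycomb complex, carried most of its counts in a CDS of 9198 bases. Its leader had 10.2, 4.55 and 14.0 CPM with silvestrol, 14.5, 3.46 and 6.95 CPM with CR-1-31-B, and 7.83, 1.06 and 5.72 CPM with DMSO, and the groups overlapped. Fold changes on the log2 scale were 0.96 for silvestrol and 0.77 for CR-1-31-B, each with an SE near 1 (0.99 and 0.98), so the depth did not allow a statement on direction. That leader passed the filter through rocaglate libraries, which favours a gain. The MGA CDS had 45.8, 43.2 and 33.1 CPM with silvestrol, 41.7, 45.0 and 48.7 CPM with CR-1-31-B, and 72.4, 55.2 and 46.9 CPM with DMSO. Of the 6 rocaglate libraries, 5 lay below all DMSO libraries, at log2 fold changes of -0.51 and -0.37 that were not called.

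MLX, the MAX-like partner, had 0 to 15 leader counts per library and did not pass the filter. Its CDS varied more within groups than between them, with 25.9, 11.4 and 15.3 CPM with silvestrol, 29.8, 0.865 and 13.9 CPM with CR-1-31-B, and 27.4, 2.12 and 16.0 CPM with DMSO. The libraries numbered 2 were the lowest of each group. MYCN, the MYC paralogue best known from neural tissue and neuroblastoma, had no leader count in any of 10 libraries, 22 CDS counts and 6 3'UTR counts in all. In the input library 0 leader counts allow up to 1.37 CPM, 3 counts being taken as the limit. MYC itself had 3336 leader counts over the same libraries.

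**Figure D3:**
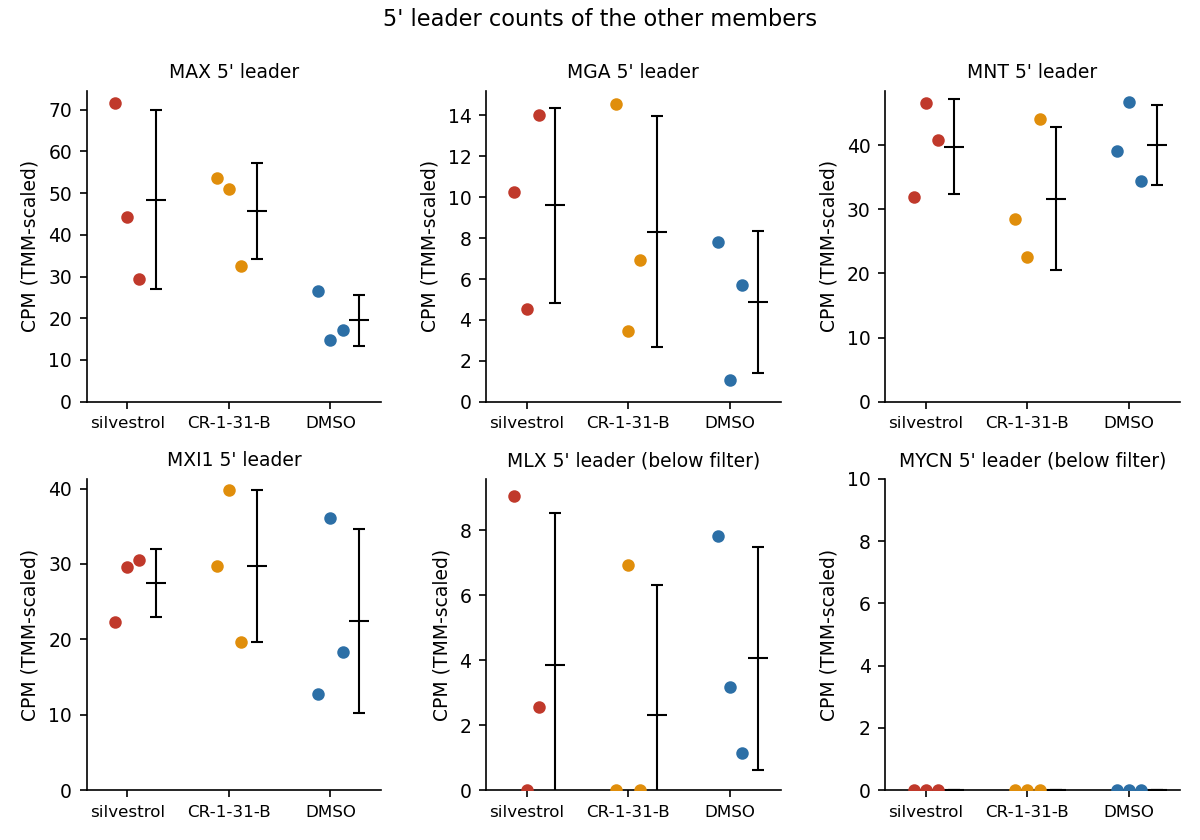
CPM (TMM-scaled) in the 5' leaders of the other 6 members, with points for libraries 1 to 3 from left to right and bars for the mean and SD, cut at 0. MAX is the 1 panel in which all 6 rocaglate points lie above all DMSO points, MNT overlaps throughout, and MYCN is at 0 in every library.

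**Figure D4:**
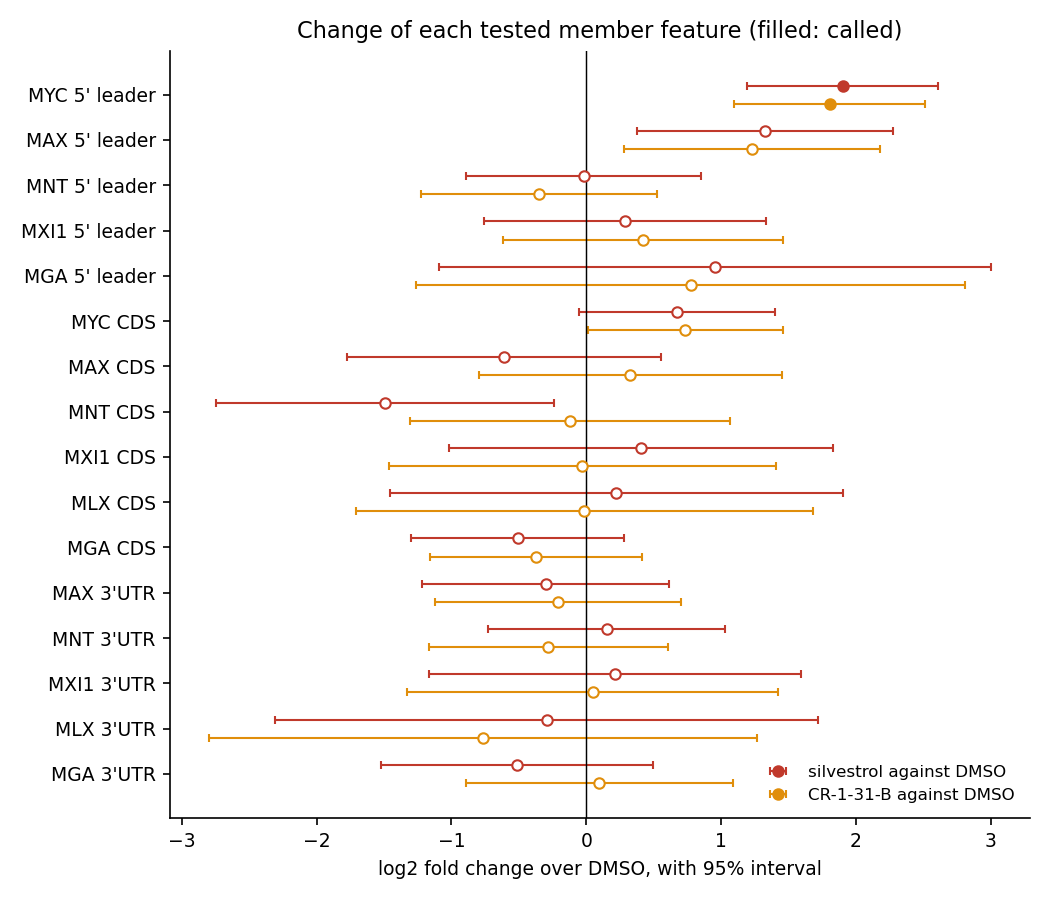
Log2 fold change over DMSO with its 95% interval for each of the 16 tested member features, silvestrol above CR-1-31-B in each row. Filled points passed the threshold: the MYC leader does so with each compound, and the other 15 features do not.

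**Figure D5:**
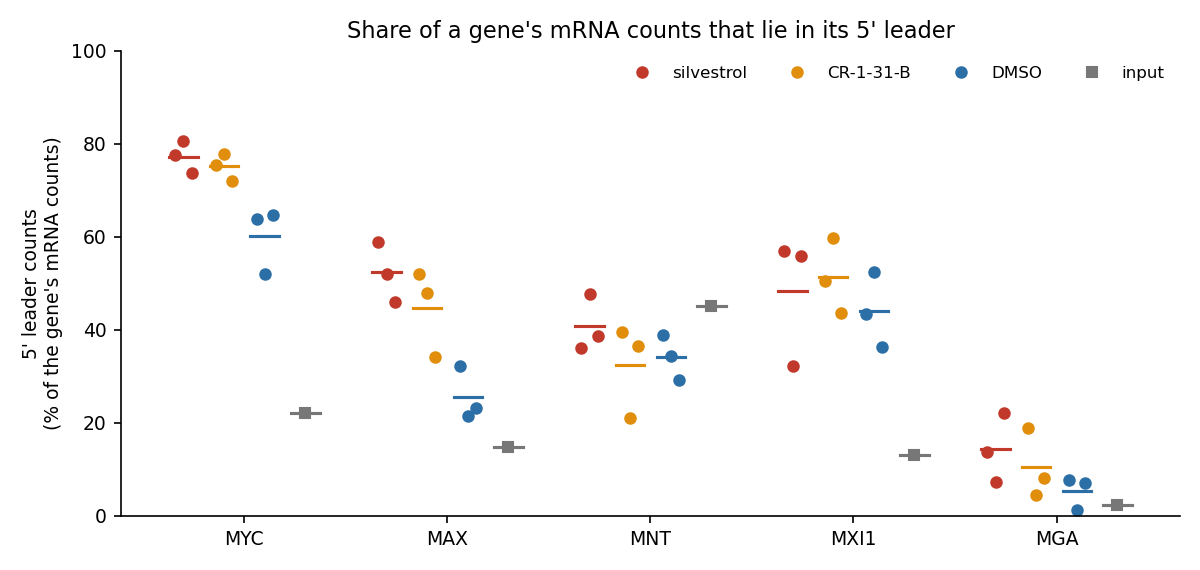
Share of a gene's mRNA counts (leader, CDS and 3'UTR) that lay in its 5' leader, per library, with horizontal lines at group means and squares for the single input library. MYC and MAX have every rocaglate library above every DMSO library, and MNT has the input above all 3 DMSO libraries.

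Levels of different genes were compared per kilobase of the reference leader, as CPM per kb. The MYC leader stood at 827 CPM per kb with silvestrol, 774 with CR-1-31-B and 221 with DMSO. The MAX leader followed at 370, 349 and 149 CPM per kb in the same groups, and MXI1 at 126, 137 and 103. The MNT leader was at 97.97, 77.96 and 98.7 CPM per kb and MGA at 53.1, 46.0 and 26.9. With DMSO the libraries of neighbours in the order MYC, MAX, MXI1 and MNT overlapped per kb, and those of MGA lay below those of MNT. With each rocaglate every MYC value lay above every MAX value. No test was made of these levels. The lengths rest on 1 transcript per gene.

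Of the 16 tested member features, counted in either direction, the MYC leader alone was called, with each rocaglate and with both. Over all tested features 0.255% were called with silvestrol, 0.291% with CR-1-31-B and 0.49% with both. With the library number as a block these shares were 1.28%, 1.48% and 2.04%, and the MYC leader was still the 1 member feature called (adjusted p = 0.00023, 0.00045 and 8.4e-05 by edgeR). The median log2 fold change of the 5 tested member leaders was 0.96 for silvestrol and 0.77 for CR-1-31-B, beside 0.40 and 0.35 over all tested leaders. In each contrast that median was the value of the MGA leader (SE 0.99 and 0.98), which held 83 counts over all libraries. The MGA leader reached 10.2 CPM or more only in rocaglate libraries. It did not pass the filter when either rocaglate was fitted with DMSO alone, so the filter kept it through libraries of both rocaglates. No conclusion on the member leaders as a set is drawn from that median. For the 6 tested CDS the median was -0.14 and -0.02, beside -0.12 and -0.03 over all CDS, and for the 5 tested 3'UTRs -0.29 and -0.21, beside -0.26 and -0.27.

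The 2 rocaglates were compared at the same dose and time over the 16 tested member features. CR-1-31-B minus silvestrol was -0.10 on the log2 scale for the MYC leader (SE 0.33, 95% interval -0.77 to 0.58) and -0.10 for the MAX leader (SE 0.43, -0.99 to 0.80). These intervals allow a difference of up to 0.77 for MYC in favour of silvestrol, so equal action was not shown. The widest gap was in the MNT CDS, at 1.37 (SE 0.60, 0.12 to 2.62, unadjusted p = 0.0330), which was not called (adjusted p = 1.00 by edgeR). No feature of the whole table was called between the compounds by edgeR (0 of 24713, or 0%), DESeq2 or limma voom, and 609 had an unadjusted p under 0.05. With the library number as a block, 1 feature was called by edgeR (0.00405%), and it was no member.

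The leaders whose pattern was most like that of MYC were ranked by Pearson's r of log2 CPM over the 9 anti-FLAG libraries, among 3880 leaders with a mean of at least 20 CPM. CDC42EP1, which encodes a CDC42 effector, came first at r = 0.987. MED22, a Mediator subunit, followed at 0.984, then TGFBR1, a TGF-beta receptor, at 0.976, FTH1, the ferritin heavy chain, at 0.974, and CHD4, a chromatin remodeller of the NuRD complex, at 0.973. The CDC42EP1 leader averaged 221 ± 22.3 CPM with silvestrol, 209 ± 30.8 CPM with CR-1-31-B and 102 ± 8.26 CPM with DMSO (SD, n = 3 each). The MED22 leader averaged 58.5 ± 19.5, 55.1 ± 17.9 and 9.74 ± 3.70 CPM in the same groups. In each of these 5 leaders all 6 rocaglate libraries lay above all 3 DMSO libraries, as the choice by likeness to MYC favours.

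A further 6 lists of genes around MYC were read beside the members. Among binders of MYC DNA or mRNA, 2 of 18 tested leaders were called higher with each rocaglate, none lower, and the list's median leader change was 0.38 and 0.34, near that of all leaders. The 2 were YBX1, a cold-shock RNA-binding protein, and HNRNPD, which binds AU-rich elements. The YBX1 leader had 1133, 292 and 933 CPM with silvestrol, 738, 569 and 560 CPM with CR-1-31-B, and 153, 109 and 132 CPM with DMSO. Its log2 fold change was 2.58 (SE 0.42, adjusted p = 0.00717 by edgeR) for silvestrol and 2.24 (SE 0.41, adjusted p = 0.0162) for CR-1-31-B. The HNRNPD leader had 1505, 746 and 945 CPM with silvestrol, 1236, 1148 and 696 CPM with CR-1-31-B, and 401, 271 and 292 CPM with DMSO. It changed by 1.73 (SE 0.36, adjusted p = 0.0413 by edgeR) and 1.68 (SE 0.36, adjusted p = 0.0475). For both genes every rocaglate library lay above every DMSO library. The YBX1 call was lost without DMSO 2, DMSO 3 or silvestrol 1 for silvestrol (adjusted p = 0.0572 to 0.0912 by edgeR), and without any 1 DMSO library, CR-1-31-B 1 or CR-1-31-B 2 for CR-1-31-B (0.0675 to 0.135). The HNRNPD call was lost without any 1 DMSO library, silvestrol 3 or CR-1-31-B 1 for either rocaglate, without silvestrol 1 for silvestrol and without CR-1-31-B 2 for CR-1-31-B (adjusted p = 0.0625 to 0.341 by edgeR). With scaling on leaders alone neither gene was called with either rocaglate (adjusted p = 0.0672 to 0.296 by edgeR). With the library number as a block, 4 leaders of this list were called higher with silvestrol, against 3 higher and 1 lower with CR-1-31-B. That fit called more features throughout: over all 7122 tested leaders 3.71% were called higher with silvestrol, while 3.59% were called higher and 0.0562% lower with CR-1-31-B. HNRNPC was added with silvestrol (1.17, adjusted p = 0.0139 by edgeR), and the ribosomal protein gene RPL5 was the lower one with CR-1-31-B (-1.51, adjusted p = 0.00291 by edgeR).

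Among 13 other bHLHZip partners and antagonists, the CDS of MXD4, a MAX partner that represses transcription, was called higher with CR-1-31-B, 1 of 11 tested CDS. Over all 8413 tested CDS 0.155% were called higher with CR-1-31-B and 0.0119% with silvestrol. It had 81.9, 61.4 and 39.5 CPM with silvestrol, 82.6, 104 and 77.6 CPM with CR-1-31-B, and 20.6, 11.7 and 24.0 CPM with DMSO, with no overlap between the rocaglate and DMSO libraries. It changed by 2.23 on the log2 scale (SE 0.42, adjusted p = 0.0189 by edgeR) for CR-1-31-B and 1.71 (SE 0.42, adjusted p = 0.105) for silvestrol. With the library number as a block the silvestrol value was called as well (adjusted p = 0.0302 by edgeR), and so was the leader of the factor USF1 (3.28, SE 0.81, adjusted p = 0.0422 by edgeR). The CR-1-31-B call was lost without any 1 DMSO library, CR-1-31-B 1 or CR-1-31-B 2 (adjusted p = 0.0753 to 0.117 by edgeR), and with scaling on leaders alone (0.212). The 9 tested leaders of that list had a median change of 0.46 with silvestrol and 0.70 with CR-1-31-B, none called, and the CDS median was -0.37 and -0.21.

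None of the other 4 lists held a called feature in the fit without a block. Of 15 tested leaders of MYC cofactors, 12 were above 0 with silvestrol and 10 with CR-1-31-B, at medians of 0.50 and 0.10. ACTL6A, an actin-like subunit of chromatin remodellers, had the largest leader change there, at 1.84 with silvestrol (adjusted p = 0.305 by edgeR) and 2.66 with CR-1-31-B (0.0565), followed by the scaffold TRRAP at 1.51 and 1.27. Corepressors of MAX dimers had 11 tested leaders with medians of 0.44 and 0.44, led by E2F6 (0.89 and 1.99) and the histone chaperone RBBP7 (1.43 and 0.79). Regulators of MYC protein stability had 15 tested leaders with medians of 0.75 and 0.46, with the ubiquitin ligase TRIM32 at 1.51 and 1.75. The ACTL6A, E2F6 and TRIM32 leaders averaged only 4.87, 4.63 and 4.71 CPM with DMSO. The filter may have kept them through rocaglate libraries, which favours a gain, so no conclusion is drawn from their place in these lists. MYC target genes had 30 tested leaders with medians of 0.37 and 0.37, led by the cyclin CCND2 (1.64 and 1.52) and the cell-cycle subunit CKS1B (1.05 and 1.85). With the library number as a block each of these 4 lists held called features, in a fit that called 1.28% of all features with silvestrol and 1.48% with CR-1-31-B. Over all CDS it called 0.452% higher with silvestrol and 0.0713% lower with CR-1-31-B. They included the ACTL6A leader with CR-1-31-B among cofactors (adjusted p = 0.0247 by edgeR) and the RBBP7 leader with silvestrol among corepressors (0.00450). Among stability regulators they included the STUB1 CDS with silvestrol (0.0360) and the PPP2R5A leader with CR-1-31-B (0.0256). Of the target genes, the CCND2 leader was called higher with silvestrol (1.74, adjusted p = 0.0114 by edgeR) and with CR-1-31-B (1.45, adjusted p = 0.0360). The leader of the glycolytic enzyme ENO1 was called higher with silvestrol (1.24, adjusted p = 0.0100 by edgeR), and its CDS was called lower with CR-1-31-B (-1.16, adjusted p = 0.0218). The CKS1B and UBTF leaders were called higher with CR-1-31-B (adjusted p = 0.0412 and 0.0400 by edgeR). The leader medians of all 6 lists lay above 0 with each compound, but not under scaling on leaders alone, where they ran from -0.064 to 0.31 with silvestrol and from -0.30 to 0.36 with CR-1-31-B.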

How the data were processed

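Read counts per gene symbol and class (5' leader, CDS, 3'UTR and 4 others) were deposited by the authors, 1 table per library, per the file headers. A line with no symbol in each file was left out. The submitters' processing notes name cutadapt, a read trimmer, and the aligner Bowtie 1.1. The build, the annotation, the use of strand, the treatment of PCR duplicates and the rule for counting a read are not given in the sources used here, so reads shared with overlapping or antisense genes, or with near-identical copies, could not be separated. PCR copies are not independent molecules, so intervals from counts cover counting error only.

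The members and gene lists were chosen with earlier results of these data known. Counts of the 9 anti-FLAG libraries were fitted with edgeR 4.0.16 (R 4.3.3): filterByExpr by group, library sizes of the kept features, TMM factors, quasi-likelihood tests, Benjamini-Hochberg adjustment over 24713 features and a threshold of 0.05. The same tool fitted leader counts against CDS plus 3'UTR counts of 11228 genes, with a term per library. Leader shares were compared by exact permutation over libraries. The alternatives were DESeq2 1.42.0, limma 3.58.1 (voom), other scalings, no filter, the library number as a block, only the 2 groups compared, and each library left out. The fits were tested on simulated data. Of 100 features changed 2-fold, 8, 3 and 7 were called for silvestrol, CR-1-31-B and both rocaglates over DMSO. Of 100 changed 4-fold, 67, 63 and 86 were called. The fit of leaders against the rest of the mRNA called 2 and 56 of 100 for both rocaglates. A feature that was not called may therefore have changed 2-fold. All 7 members were named, as were the 5 leaders most correlated with the MYC leader and, from each list, the genes called without a block or else the 2 leaders with the largest change for both rocaglates. List genes called only with the block were named after their values were seen. Some list genes that this rule names are not reported here.

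The labels give each group the numbers 1 to 3. Deviations from group means correlated at 0.102 to 0.263 between libraries of the same number (9 pairs, the lowest borderline) and at -0.203 to 0.0163 between others. The numbers were taken as pairs only in the fits with the library number as a block and in the paired permutation. The main fits, the main permutation test and the fits with a library left out held no term for the number. The pairing rests on the data and not on the labels. Libraries of a group differed by more than counting noise (chi-square per degree of freedom 4.66 to 10.4). The labels do not say whether libraries came from separate cultures, so the p-values measure the spread between these libraries, which may be technical. Leader lengths and sequences came from GENCODE v29 on GRCh38, by symbol, for all 7 members.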

Additional observations from a re-analysis of the deposited data

Results flagged for a closer look

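Of 28 rows of the members in the 4 classes outside the leader, CDS and 3'UTR, 1 held counts. In the class named transcript in the file headers, MAX had 7 counts in silvestrol 2 and 0 in each of the other 9 libraries, which was noted because these classes enter none of the comparisons. The source of those counts was not tested.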

How the results depend on the processing

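The MYC leader kept its direction over DMSO in all 53 refits and lost its call in 14. Scaling on leaders alone gave 1.45, 1.40 and 1.43 for silvestrol, CR-1-31-B and both, none called (adjusted p = 0.186, 0.186 and 0.0662 by edgeR). Leaving out 1 library gave 1.80 to 2.12, 1.70 to 2.02 and 1.76 to 2.07. For both rocaglates the call was lost without DMSO 2 (adjusted p = 0.0566) or DMSO 3 (0.124). CR-1-31-B over silvestrol ranged from -0.26 to 0.063 for the MYC leader and from -0.38 to 0.33 for the MAX leader in those fits. Over the 45 other member results against DMSO, none of 777 refits gained a call and 57 changed direction. The MNT leader with silvestrol was near 0 and turned to 0.0021 (DESeq2 size factors), 0.014 (no filter), 0.014 (library sizes and TMM before the filter, an alternative chosen after seeing the data) and 0.00025 (DESeq2), and ranged from -0.14 to 0.14 without 1 library. Scaling on leaders alone turned the MXI1 leader with silvestrol to -0.11 and the MAX CDS with CR-1-31-B to -0.094. The MNT CDS with CR-1-31-B ranged from -0.38 to 0.18 without 1 library.

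Counts of called features moved more. For silvestrol, CR-1-31-B and both over DMSO they were 4, 12 and 24 with scaling on leaders alone, 215, 225 and 320 with no filter, 316, 365 and 505 with the replicate block, and 280, 328 and 533 with DESeq2. Without 1 library they ran from 4 to 100, 0 to 226 and 7 to 287. The 0 was for CR-1-31-B without DMSO 3. Between the compounds, 7 were called with no filter and 1 with the block. For the leader against the rest of the mRNA, 84 genes were called for both rocaglates with CDS alone as the rest, 65 for CR-1-31-B with no filter, and 168, 106, 239 and 1 with the block. Without 1 library these counts were 28 to 156, 7 to 166, 67 to 330 and, between the compounds, 0 to 2. The block kept all 63, 72 and 121 features called without it, and added calls in each of the 6 gene lists. For the MYC leader share the paired permutation within library numbers gave p = 0.037, and the difference was 11.99 to 18.3 points without 1 library. The causes were not tested. The MGA, MLX and MYCN leaders held 83, 37 and 0 counts over all libraries, which limits what can be said of them.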

Other observations

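Purine content described the leaders of other genes as follows. The 1187 matched leaders that held AGAGAG or GAGAGA, as the MNT leader does, had a median log2 fold change of 0.51 for both rocaglates over DMSO, and the 5731 without either had 0.34. Leaders whose longest purine run was under the median of 8 bases, as in MGA and MLX, numbered 2616 and had a median of 0.24. The median leader lengths of these groups were 442, 221 and 149 bases, and the part of length in the differences was not tested. The MAX leader, with a run of 8 bases and neither hexamer, was at 1.27.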
